A study of Homo sapiens with 12 samples.

Results

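The genes described here are the glycolytic enzymes step by step, the PFKFB and PDK regulators on either side of the pathway, the pyruvate dehydrogenase subunits and phosphatases, and the glucose and lactate transporters. They were chosen by name, as 36 of the 26475 gene symbols with a deposited expected count, and all 36 were found. RNA was measured in 12 libraries of human cell lines, with 3 biological replicates in each of 4 groups. PA-1 is an ovarian teratocarcinoma line and SK-OV-3 an ovarian adenocarcinoma line, and each was kept for 48 h in either the solvent DMSO alone or BAY-850 at 5 µM. BAY-850 is a small molecule that keeps the bromodomain of the chromatin protein ATAD2 from acetylated histones, and the study asked what ATAD2 inhibition changes in ovarian cancer cells. PA-1 was grown in DMEM and SK-OV-3 in RPMI, both with fetal bovine serum, so a difference between the lines and a difference between the media cannot be told apart. Levels are CPM, counts scaled to a common library size, after TMM scaling of the libraries, given with the SD of 3 libraries, and a gene was called when its adjusted p in edgeR's quasi-likelihood test was under 0.05.

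Glycolysis splits glucose into pyruvate and yields ATP and NADH. Glucose enters through SLC2A (GLUT) carriers, is trapped by hexokinase, and is committed at phosphofructokinase-1, whose activator fructose 2,6-bisphosphate is made and removed by the PFKFB enzymes. Pyruvate is then either reduced to lactate by lactate dehydrogenase and exported by SLC16A (MCT) carriers, or oxidised by pyruvate dehydrogenase, which PDK kinases switch off and PDP phosphatases switch on. Most steps have several isozymes from separate genes, and tumour cells often favour isozymes that sustain a high flux to lactate in the presence of oxygen.

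The libraries held 34544481 to 51840249 counts, of which ribosomal RNA genes took 7.94% to 16.9%. The third BAY-850 library of SK-OV-3 had counts for 15629 genes, against 17425 to 18414 in the other libraries. Of 8 pluripotency genes named for PA-1, 7 reached a mean of 1 CPM in PA-1 and 2 did in SK-OV-3, while TDGF1 was at 0.316 CPM or less in every library. Of 8 epithelial genes named for SK-OV-3, 7 reached 1 CPM there and 5 did in PA-1, with MUC16 at 0 to 1.01 CPM in SK-OV-3. The epithelial genes summed to 4129 to 4434 CPM under DMSO and 2898 to 3361 under BAY-850 in SK-OV-3, and to 925 to 980 and 1007 to 1054 CPM in PA-1. The 7 blood and endothelial markers summed to 26.5 to 29.5 CPM in PA-1 and 3.26 to 4.55 in SK-OV-3. PECAM1 made up most of this, at 22.9 to 26.2 CPM in PA-1 and 2.51 to 3.75 in SK-OV-3. VWF was at 2.03 to 4.37 CPM in PA-1, while PTPRC and CD3E were at 0.222 CPM or less in every library. The 5 fibroblast markers, led by COL1A1, which both lines expressed, summed to 470 to 581 CPM under DMSO and 611 to 660 under BAY-850 in PA-1, and to 180 to 190 and 88.9 to 117 in SK-OV-3. The part of these markers in the results was not tested. ATAD2 itself was at 41.4 ± 0.25 CPM under DMSO and 36.5 ± 2.43 under BAY-850 in PA-1, and at 79.4 ± 7.91 and 56.7 ± 2.33 in SK-OV-3.

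To determine how BAY-850 treatment affected glycolytic genes, the treated libraries of each line were compared with the DMSO libraries of the same line. In PA-1, 21 of the 35 members tested were upregulated, where 7.13% of all genes tested were called, 4.65% higher and 2.48% lower. The upregulated genes ran from glucose uptake (SLC2A1, SLC2A3) through every enzymatic step to LDHA, the lactate exporter SLC16A3 and the kinase PDK1. In SK-OV-3, 19 of the 35 members tested were upregulated, where 20.4% of all genes were called, 10.8% higher and 9.56% lower, and 1 member, LDHB, was downregulated. The same 16 genes were upregulated in both lines, namely HK1, HK2, GPI, PFKL, PFKP, PFKFB3, PFKFB4, ALDOA, ALDOC, TPI1, GAPDH, PGK1, ENO1, ENO2, SLC16A3 and PDK1, where 1.1% of the 13861 genes tested in both lines were called higher in each. At 1.5-fold or more the counts were 8 genes in PA-1, against 0.894% of all genes, and 5 in SK-OV-3, against 3.04%.

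No member was called lower in PA-1 by edgeR, DESeq2 or limma-voom, and 1 was lower at an unadjusted p under 0.05 in edgeR. The median log2 fold change of the members was 0.26 in PA-1 and 0.19 in SK-OV-3, beside -0.00192 and -0.00909 over all genes tested. The DMSO and BAY-850 libraries did not overlap, with BAY-850 higher, for 22 of 35 members in PA-1 and 21 of 35 in SK-OV-3, where 14.1% and 18.1% of all genes showed this (27.5% and 38.6% in either direction). BAY-850 was lower without overlap for 1 member in PA-1 and 4 in SK-OV-3, where 13.3% and 20.5% of all genes did. Together the members took 2.41% ± 0.0314 of the counts outside ribosomal RNA genes in PA-1 under DMSO and 3.08% ± 0.10 under BAY-850, with no overlap. In SK-OV-3 they took 1.98% ± 0.0571 and 2.21% ± 0.0122, also with no overlap. Log2 fold changes also ran with GC content over coding genes, with medians of -0.13 for the lowest GC decile and 0.12 for the top decile in PA-1, against -0.02 and 0.08 in SK-OV-3, and the members had a median GC content of 53.0% against 49.3% for all coding genes tested in PA-1. These are bulk libraries, in which fewer cells using a gene and less RNA per cell cannot be told apart.

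**Figure D1:**
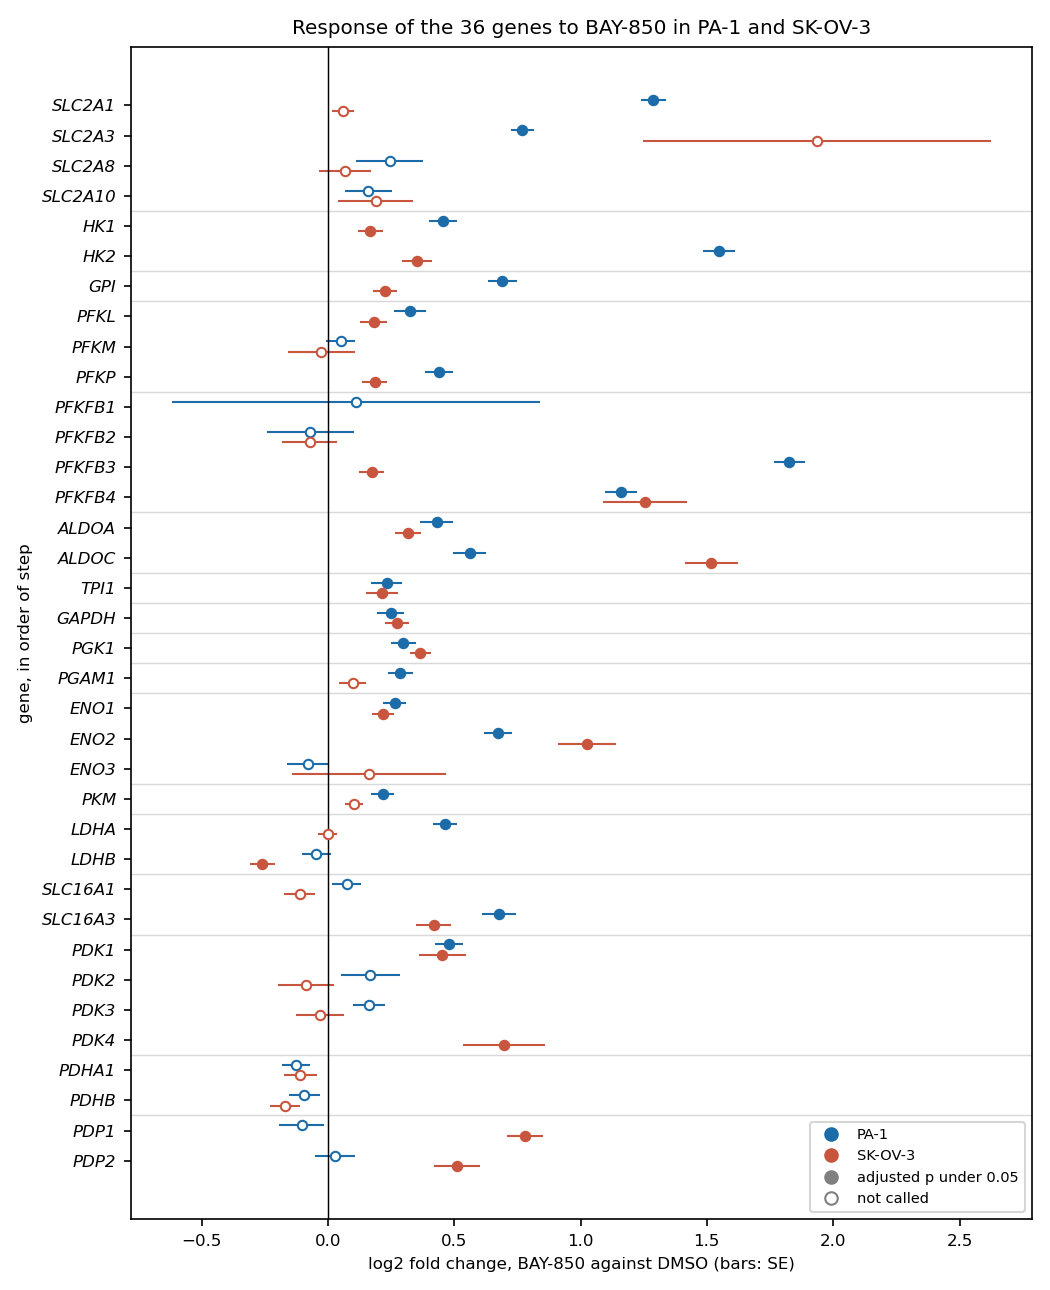
Log2 fold change of each member under BAY-850 against DMSO (x axis) in PA-1 (blue) and SK-OV-3 (red), in order of step (y axis), with bars of 1 SE from edgeR and filled points for an adjusted p under 0.05. Most filled points lie right of 0, with PFKFB3, HK2 and SLC2A1 far higher in PA-1 and ALDOC far higher in SK-OV-3, and LDHB is the single filled point left of 0.

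RNA of both main glucose carriers was upregulated in PA-1. SLC2A1 (GLUT1, chromosome 1), the carrier of basal uptake in many cell types, was at 618, 580 and 616 CPM under DMSO and 1436, 1496 and 1492 under BAY-850 in PA-1. Every treated library lay above every control, a 2.44-fold difference (log2 1.29 ± 0.05 SE, adjusted p = 3.71e-10). In SK-OV-3 SLC2A1 was at 326, 322 and 327 CPM under DMSO and 341, 346 and 322 under BAY-850, and the groups overlapped (log2 0.06 ± 0.04, adjusted p = 0.38). The 2 responses differed by -1.24 ± 0.06 on the log2 scale, SK-OV-3 minus PA-1 (adjusted p = 8.3e-09 for the interaction of line and treatment).

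SLC2A3 (GLUT3, chromosome 12), a carrier with high affinity for glucose, was per exon length the most abundant of the 4 glucose carriers in PA-1. It was at 1386, 1409 and 1385 CPM under DMSO and at 2390, 2400 and 2326 under BAY-850, 1.7-fold higher without overlap (log2 0.77 ± 0.04, adjusted p = 4.56e-08). In SK-OV-3 it was nearly silent, at 0.226, 0.45 and 0.104 CPM under DMSO and 0.591, 1.09 and 1.28 under BAY-850 (log2 1.94 ± 0.69, adjusted p = 0.0705). The interaction for SLC2A3 was called (log2 1.19 ± 0.36, adjusted p = 0.0369) but rests on these few counts and was kept in 8 of 20 alternatives. It was lost on leaving out any one of the PA-1 libraries (adjusted p from 0.0529 to 0.0609), DMSO replicate 1 or 3 of SK-OV-3 (0.104 and 0.161) or BAY-850 replicate 2 or 3 of SK-OV-3 (0.0715 and 0.0957). SLC2A14, a near-identical neighbour with which reads of SLC2A3 can be shared, was at 19.8 ± 3.05 and 22.9 ± 3.26 CPM in PA-1. RSEM shares reads between such copies, and counts were not whole in 7 of 12 libraries for SLC2A3, 12 for PGAM1, ENO1 and PDHA1, 11 for ENO2 and 8 for TPI1, so the levels of these genes are less certain. The remaining carriers, SLC2A8 and SLC2A10, were not called in either line, with log2 fold changes of 0.24 and 0.16 in PA-1 and 0.07 and 0.19 in SK-OV-3.

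The hexokinases, which trap glucose as glucose 6-phosphate, were upregulated in both lines, and HK2 far more so in PA-1. HK2 (chromosome 2), the inducible isozyme, was at 120, 122 and 119 CPM under DMSO and 378, 354 and 322 under BAY-850 in PA-1, 2.92-fold higher (log2 1.55 ± 0.06, adjusted p = 5.62e-10). In SK-OV-3 HK2 was at 52.3, 56.4 and 54.7 CPM under DMSO and 68.6, 71.1 and 67.2 under BAY-850, 1.28-fold higher (log2 0.35 ± 0.06, adjusted p = 0.0019). Neither line showed overlap, and the responses differed by -1.21 ± 0.08 (adjusted p = 2.11e-07).

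HK1 (chromosome 10), the isozyme found in most tissues, was at 191, 184 and 192 CPM under DMSO and 271, 254 and 252 under BAY-850 in PA-1 (log2 0.46 ± 0.05, adjusted p = 0.000114). In SK-OV-3 HK1 was at 170, 177 and 180 against 197, 202 and 189 CPM (log2 0.17 ± 0.05, adjusted p = 0.0316), and the interaction was -0.30 ± 0.07 (adjusted p = 0.00875). The SK-OV-3 call for HK1 was lost on leaving out DMSO replicate 2 or 3 (adjusted p = 0.102 and 0.0637) or BAY-850 replicate 1 or 2 (0.0921 and 0.127). In PA-1 the HK2/HK1 log2 ratio was -0.65 ± 0.05 (SD) under DMSO and 0.43 ± 0.07 under BAY-850, and HK2 held 33.3% ± 0.782 and 51.5% ± 1.29 of the summed HK1 and HK2 counts per exon length. In SK-OV-3 HK2 held 19.6% ± 0.384 and 21.7% ± 0.178 of that sum, which leaves out HKDC1, at 80.1 ± 1.48 and 140 ± 15.3 CPM in that line. Per length of the longest transcript, HK2 held 30.6% of the HK1 and HK2 sum under DMSO and 48.4% under BAY-850 in PA-1. Whether HK2 passed HK1 there thus depends on the gene length used.

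GPI (chromosome 19), which turns glucose 6-phosphate into fructose 6-phosphate, was at 309, 317 and 349 CPM under DMSO and 512, 518 and 542 under BAY-850 in PA-1, 1.61-fold higher (log2 0.69 ± 0.06, adjusted p = 3.38e-06). In SK-OV-3 GPI was at 276, 268 and 269 against 326, 322 and 295 CPM (log2 0.23 ± 0.05, adjusted p = 0.00683). The treated libraries lay above all controls in both lines, and the response was smaller in SK-OV-3 (interaction -0.48 ± 0.08, adjusted p = 0.00081).

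At phosphofructokinase-1, the committed step, RNA of the liver (PFKL) and platelet (PFKP) forms was upregulated, and the muscle form PFKM was not called. PFKP (chromosome 10) was at 118, 111 and 120 CPM under DMSO and 155, 160 and 158 under BAY-850 in PA-1 (log2 0.44 ± 0.06, adjusted p = 0.000186). In SK-OV-3 PFKP was at 447, 436 and 434 against 519, 509 and 456 CPM (log2 0.19 ± 0.05, adjusted p = 0.0224), without overlap in either line. That SK-OV-3 call was lost without DMSO replicate 2 or 3 (adjusted p = 0.0975 and 0.0815) or BAY-850 replicate 1 or 2 (0.106 and 0.097). The PFKP interaction of -0.27 ± 0.07 (adjusted p = 0.0256) was lost without DMSO replicate 2 (0.0762) or BAY-850 replicate 2 (0.0644) of PA-1.

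PFKL was higher in PA-1 (log2 0.32 ± 0.06, adjusted p = 0.00761), a call lost without DMSO replicate 2 (0.0618). In SK-OV-3 it rose by 0.18 ± 0.05 (adjusted p = 0.0316), which was kept in 8 of 16 alternatives. The SK-OV-3 call was lost without DMSO replicate 2 or 3 (0.139 and 0.072) or BAY-850 replicate 1 or 2 (0.136 and 0.115), and the value was 0.09 (adjusted p = 0.2) once a trend with GC content was removed. PFKM stood at 99.5 ± 2.66 and 103 ± 4.62 CPM in PA-1 and at 16 ± 1.4 and 15.6 ± 2.6 in SK-OV-3 (log2 0.05 and -0.03).

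Among the PFKFB enzymes, which set the level of fructose 2,6-bisphosphate, PFKFB3 and PFKFB4 were upregulated in both lines and PFKFB2 was called in neither. PFKFB3 (chromosome 10), the isoform with the strongest kinase bias, gave the largest change of any member in PA-1. It was at 64.8, 60.7 and 64.2 CPM under DMSO and 235, 225 and 211 under BAY-850, 3.55-fold higher (log2 1.83 ± 0.06, adjusted p = 5.71e-11). In SK-OV-3 PFKFB3 was at 135, 137 and 141 against 157, 158 and 147 CPM (log2 0.17 ± 0.05, adjusted p = 0.0295). The SK-OV-3 call was lost without DMSO replicate 2 or 3 (0.115 and 0.0653) or BAY-850 replicate 1 or 2 (0.103 and 0.12). The responses differed by -1.66 ± 0.08 (adjusted p = 3.53e-09), the largest gap between the lines among the called members.

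PFKFB4 (chromosome 3) started from very different levels in the lines and was upregulated in both. It was at 83, 79.4 and 84.6 CPM under DMSO and 172, 180 and 198 under BAY-850 in PA-1, 2.23-fold higher (log2 1.16 ± 0.06, adjusted p = 3.59e-08). In SK-OV-3 PFKFB4 was at 3.87, 4.15 and 5 against 11.8, 9.9 and 9.18 CPM, 2.39-fold higher (log2 1.26 ± 0.17, adjusted p = 0.000313). Neither line showed overlap, and the interaction of 0.08 ± 0.14 was not called (adjusted p = 0.764). PFKFB2 was at 9.61 ± 1.42 and 9.12 ± 2.38 CPM in PA-1 and at 21.9 ± 2.69 and 20.6 ± 1.49 in SK-OV-3, and PFKFB1 stayed at 0.594 CPM or less in every library. The PFKFB4/PFKFB3 log2 ratio differed in opposite directions, BAY-850 minus DMSO, by -0.66 ± 0.10 (SE) in PA-1 and by 0.99 ± 0.12 in SK-OV-3, without overlap in either.

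**Figure D2:**
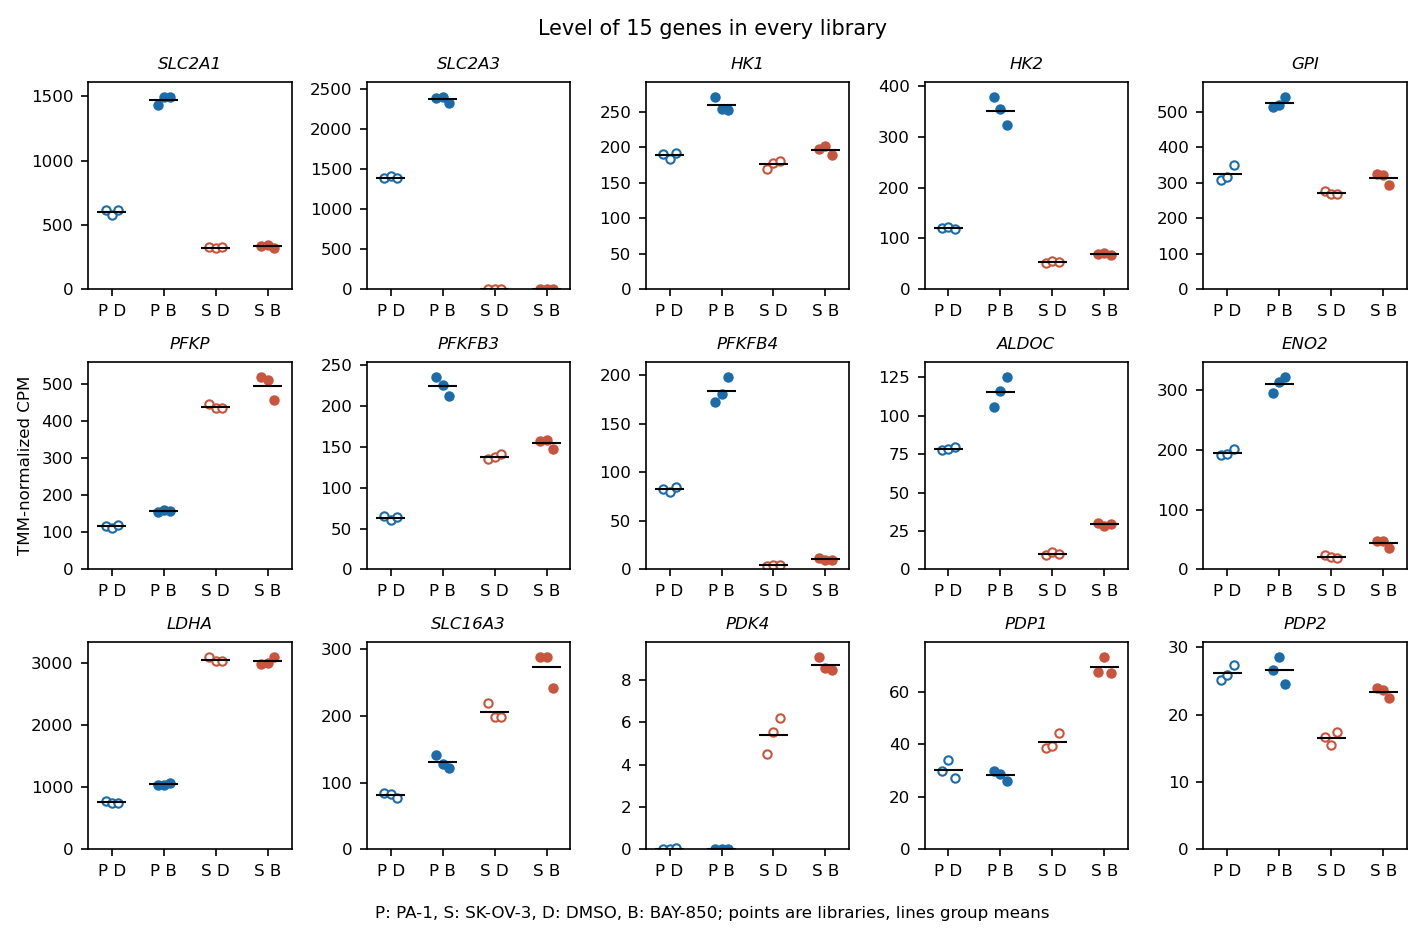
TMM-normalized CPM (y axis, from 0) of the 15 members called at 1.5-fold or more in either line or with a called interaction, in each library of PA-1 (blue) and SK-OV-3 (red) under DMSO (open) and BAY-850 (filled), with lines at group means. SLC2A3 and PDK4 are each near 0 in one line, LDHA is higher in SK-OV-3 than in PA-1 in both treatments, and PDP1 and PDP2 separate DMSO from BAY-850 in SK-OV-3 and not in PA-1.

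The aldolases, which split fructose 1,6-bisphosphate, were upregulated in both lines, and ALDOC responded more in SK-OV-3. ALDOC (chromosome 17), the form best known from brain, was at 77.8, 78.4 and 79.4 CPM under DMSO and 106, 116 and 125 under BAY-850 in PA-1 (log2 0.56 ± 0.07, 1.48-fold, adjusted p = 9.97e-05). In SK-OV-3 ALDOC was at 9.46, 11.5 and 10.1 against 30.4, 28.2 and 29.6 CPM, 2.86-fold higher (log2 1.52 ± 0.10, adjusted p = 2.5e-06), the largest called change of any member in that line. No library overlapped in either line, and the response was larger in SK-OV-3 by 0.94 ± 0.11 (adjusted p = 4.04e-05). ALDOA, the main form in both lines, rose by 0.43 ± 0.07 in PA-1 and 0.32 ± 0.05 in SK-OV-3 (adjusted p = 0.00116 and 0.00151). ALDOC remained a small part of the ALDOA and ALDOC counts per exon length, at 5.44% ± 0.251 and 5.92% ± 0.0798 in PA-1 and 0.781% ± 0.121 and 1.77% ± 0.0997 in SK-OV-3.

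Of the single-gene steps of lower glycolysis, GAPDH, PGK1 and TPI1 were called higher in both lines and PGAM1 and PKM in PA-1. For PGAM1 and PKM a difference between the responses was not called (interaction -0.20 ± 0.07 and -0.12 ± 0.06, adjusted p = 0.0799 and 0.158). The PGAM1 interaction passed the threshold by DESeq2 (0.0165). GAPDH, often used as a reference gene, was at 5582, 5468 and 5623 CPM under DMSO and 6050, 6635 and 7100 under BAY-850 in PA-1 (log2 0.25 ± 0.05, adjusted p = 0.0124). In SK-OV-3 GAPDH was at 2389, 2189 and 2210 against 2678, 2645 and 2798 CPM (log2 0.27 ± 0.05, adjusted p = 0.00222), with no overlap in either line. The PA-1 call for GAPDH was lost without DMSO replicate 2 (0.0962) or BAY-850 replicate 2 (0.0557). PGK1, which makes the first ATP of the pathway, rose by 0.30 ± 0.05 in PA-1 and 0.37 ± 0.04 in SK-OV-3 (adjusted p = 0.00168 and 0.000126).

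TPI1, which interconverts the triose phosphates, rose by 0.23 ± 0.06 in PA-1 and 0.21 ± 0.06 in SK-OV-3 (adjusted p = 0.0323 and 0.0354). Its PA-1 call was kept in 8 of 16 alternatives and was lost without DMSO replicate 1, 2 or 3 or BAY-850 replicate 2 or 3 (adjusted p from 0.0535 to 0.173). Its SK-OV-3 call was lost without DMSO replicate 2 or 3 (0.145 and 0.144) or BAY-850 replicate 2 or 3 (0.0958 and 0.0574). PGAM1, phosphoglycerate mutase, rose by 0.29 ± 0.05 in PA-1 (adjusted p = 0.00308) and was not called in SK-OV-3 (log2 0.10 ± 0.05, adjusted p = 0.22). PKM, pyruvate kinase, rose by 0.22 ± 0.05 in PA-1 (adjusted p = 0.0124), and without DMSO replicate 2 or BAY-850 replicate 2 this was lost (0.104 and 0.0691). Once a trend with GC content was removed, the PA-1 calls of PKM and TPI1 were lost as well (0.0562 and 0.078). In SK-OV-3 PKM was higher by 0.10 ± 0.04 without overlap, and edgeR did not call it (adjusted p = 0.0636). It passed the threshold by DESeq2 (0.0381), by limma-voom (0.0477) and in edgeR without DMSO replicate 1 (0.00286).

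ENO1 and ENO2 were upregulated in both lines, with larger log2 fold changes for ENO2, the less abundant per exon length. ENO2 (chromosome 12), the neuronal form, was at 192, 193 and 201 CPM under DMSO and 295, 314 and 322 under BAY-850 in PA-1, 1.59-fold higher (log2 0.67 ± 0.06, adjusted p = 2.84e-06). In SK-OV-3 ENO2 was at 23.5, 21 and 19.8 against 48, 46.9 and 35.3 CPM, 2.04-fold higher (log2 1.03 ± 0.12, adjusted p = 0.000101). The libraries did not overlap in either line, and the interaction of 0.34 ± 0.13 was not called (adjusted p = 0.0997). Among the libraries left out, it passed the threshold only without BAY-850 replicate 3 of SK-OV-3 (log2 0.48, adjusted p = 0.00237). It also passed by DESeq2 (0.0332), with at least 10 counts in every library (0.037) and with the replicate block (0.04), and in no other alternative. ENO1, the main enolase, rose by 0.26 ± 0.04 in PA-1 and 0.22 ± 0.04 in SK-OV-3 (adjusted p = 0.00232 and 0.00398). ENO3, the muscle form, was at 22.1 ± 0.834 and 20.9 ± 0.917 CPM in PA-1 and at 1.86 ± 0.196 and 2.06 ± 0.236 in SK-OV-3, and was not called.

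Of the lactate dehydrogenase subunits, LDHA was upregulated in PA-1 and LDHB downregulated in SK-OV-3. LDHA (chromosome 11), whose subunit favours lactate formation, was at 781, 752 and 743 CPM under DMSO and 1042, 1034 and 1060 under BAY-850 in PA-1 (log2 0.46 ± 0.05, adjusted p = 2.42e-05). In SK-OV-3 LDHA was at 3093, 3034 and 3027 against 2972, 3003 and 3094 CPM, with overlapping groups (log2 0.00 ± 0.04, adjusted p = 0.999), and the responses differed by -0.48 ± 0.05 (adjusted p = 3.27e-05). LDHB, whose subunit favours lactate use, was at 1226, 1150 and 1071 against 1132, 1058 and 1144 CPM in PA-1 (log2 -0.05 ± 0.06, adjusted p = 0.675). In SK-OV-3 LDHB was at 373, 371 and 350 CPM under DMSO and 302, 314 and 291 under BAY-850, and fell by 0.26 ± 0.05 (adjusted p = 0.00317). The interaction for LDHB was not called (-0.22 ± 0.08, adjusted p = 0.0659), and it passed the threshold without DMSO replicate 1 of PA-1 (0.0318), by DESeq2 (0.0226) and by limma-voom (0.0499). Per exon length, LDHA made up 26.1% ± 0.831 of the LDHA and LDHB sum under DMSO and 33.5% ± 0.736 under BAY-850 in PA-1, and 81.7% ± 0.425 and 84.2% ± 0.713 in SK-OV-3.

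Of the lactate carriers, SLC16A3 was upregulated in both lines and SLC16A1 in neither. SLC16A3 (MCT4, chromosome 17), the carrier typical of lactate-exporting cells, was at 84.7, 83.6 and 76.7 CPM under DMSO and 141, 128 and 122 under BAY-850 in PA-1, 1.6-fold higher (log2 0.68 ± 0.07, adjusted p = 1.26e-05). In SK-OV-3 SLC16A3 was at 220, 198 and 199 against 289, 288 and 241 CPM (log2 0.42 ± 0.07, adjusted p = 0.00149). Treated libraries lay above all controls in both lines, and the interaction was -0.27 ± 0.11 (adjusted p = 0.114). SLC16A1 (MCT1) was at 206 ± 3.2 and 216 ± 12.1 CPM in PA-1 and at 76.2 ± 2.58 and 69.9 ± 2.13 in SK-OV-3. The SLC16A3 share of the pair per exon length was 26.4% ± 0.944 and 35.2% ± 0.457 in PA-1 and 70.8% ± 1.83 and 77.8% ± 2.26 in SK-OV-3.

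At the entry of pyruvate to the mitochondrion, the kinase PDK1 was upregulated in both lines and the phosphatases in SK-OV-3. PDK1 (chromosome 2) was at 88.2, 85.1 and 83.3 CPM under DMSO and 120, 116 and 120 under BAY-850 in PA-1 (log2 0.48 ± 0.06, adjusted p = 8.64e-05). In SK-OV-3 PDK1 was at 26.9, 33.4 and 28.6 against 39.7, 38.8 and 42 CPM (log2 0.45 ± 0.09, adjusted p = 0.00564), with no overlap in either line. PDK4 (chromosome 7), the kinase induced on fasting in many tissues, was at 4.5, 5.53 and 6.22 against 9.08, 8.55 and 8.47 CPM in SK-OV-3, 1.62-fold higher (log2 0.70 ± 0.16, adjusted p = 0.0105). In PA-1 PDK4 was at 0 CPM in 5 libraries and 0.0849 in the sixth, and it was not tested there. PDK2 and PDK3 were not called in either line, with log2 fold changes of 0.17 and 0.16 in PA-1 and -0.09 and -0.03 in SK-OV-3.

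PDP1 (chromosome 8), the main phosphatase of pyruvate dehydrogenase, was at 38.5, 39.3 and 44.2 CPM under DMSO and 67.4, 73.2 and 67 under BAY-850 in SK-OV-3, 1.72-fold higher without overlap (log2 0.78 ± 0.07, adjusted p = 2.24e-05). In PA-1 it was at 29.7, 34 and 27.2 against 30, 28.8 and 25.8 CPM, with overlap (log2 -0.10 ± 0.09, adjusted p = 0.526), and the responses differed by 0.87 ± 0.13 (adjusted p = 0.0003). PDP2 (chromosome 16) was at 16.8, 15.5 and 17.4 against 24, 23.7 and 22.4 CPM in SK-OV-3, 1.43-fold higher (log2 0.51 ± 0.09, adjusted p = 0.00244). In PA-1 PDP2 was at 25.1, 25.9 and 27.4 against 26.7, 28.6 and 24.5 CPM, again with overlap, and the responses differed by 0.47 ± 0.12 (adjusted p = 0.0162). The catalytic subunits PDHA1 and PDHB were not called, with log2 fold changes of -0.12 and -0.09 in PA-1 and -0.11 and -0.17 in SK-OV-3. Without BAY-850 replicate 3 of SK-OV-3, the library with the fewest genes, PDHA1 was called lower there (log2 -0.17, adjusted p = 0.0465), and the line had 20 members called, 18 higher and 2 lower.

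Tested directly, the response to BAY-850 differed between the lines for 11 of the 36 members, where 14.5% of all genes did, 6.7% with the higher value in SK-OV-3 and 7.77% with the lower. The response was larger in PA-1 for SLC2A1, HK1, HK2, GPI, PFKP, PFKFB3 and LDHA, and larger in SK-OV-3 for SLC2A3, ALDOC, PDP1 and PDP2. Of the 18 enzymes from hexokinase to lactate dehydrogenase, 15 were upregulated in PA-1 and 12 in SK-OV-3, with median log2 fold changes of 0.31 and 0.20. Among the 6 transporters 3 were upregulated in PA-1 and 1 in SK-OV-3, and among the 4 pyruvate dehydrogenase subunits and phosphatases 2 were upregulated in SK-OV-3. Beside these counts, 4.65% of all genes tested were called higher in PA-1 and 10.8% in SK-OV-3.

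In DMSO alone, the member with the most RNA per exon length differed between the lines at some steps and not at others. It differed for the glucose carriers, phosphofructokinase-1, the PFKFB enzymes, lactate dehydrogenase and the lactate carriers. HK1, ALDOA, ENO1, PDK3 and PDP1 led the members of their steps in both lines. The lead of PDK3 rests on length, as the exons of PDK1 cover 14253 bases and those of PDK3 2513. In mean CPM PDK1 was above PDK3, at 85.6 against 40.3 in PA-1 and 29.6 against 25.9 in SK-OV-3. Under DMSO, 33 of 35 members tested differed between the lines, 11 higher and 22 lower in SK-OV-3, where 80.3% of all genes differed, 40.1% higher and 40.2% lower. The median log2 difference, SK-OV-3 minus PA-1, was -0.66 over the members and 0.00188 over all genes tested. This comparison shares its DMSO libraries with the 2 treatment comparisons.

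SLC2A3 showed the widest gap, at 1393 ± 13.9 CPM in PA-1 and 0.26 ± 0.175 in SK-OV-3 (log2 -12.38 ± 0.14, adjusted p = 6.4e-15). SLC2A1, at 605 ± 21.3 and 325 ± 2.31 CPM, was lower in SK-OV-3 (log2 -0.90 ± 0.05, adjusted p = 2.7e-09) and still made up 90.2% ± 0.234 of the 4 glucose carriers there per exon length, against 29.4% ± 0.914 in PA-1. LDHA was higher in SK-OV-3 (759 ± 20 against 3051 ± 36.2 CPM, 4.01-fold, log2 2.00 ± 0.05, adjusted p = 7.83e-13), while LDHB was lower (1149 ± 77.1 against 365 ± 12.5 CPM, log2 -1.66 ± 0.06, adjusted p = 3.92e-11). PFKP and SLC16A3 were also higher in SK-OV-3, by 1.91 ± 0.05 and 1.33 ± 0.06, and PKM and PFKFB3 by 0.97 ± 0.05 and 1.12 ± 0.06.

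PFKFB4, ENO2, ENO3, ALDOC and PFKM were all lower in SK-OV-3, with log2 differences of -4.25, -3.19, -3.57, -2.93 and -2.64. HK2, PDK1 and SLC16A1 were also lower, with log2 differences of -1.15 ± 0.06, -1.53 ± 0.08 and -1.43 ± 0.05. HK1 and ALDOA were not called (log2 -0.11 and -0.05), and SLC2A8, 0.32 ± 0.13 higher (adjusted p = 0.0332), lost its call without replicate 1 or 2 of either line (adjusted p from 0.0677 to 0.13). PFKFB1 was not tested in this comparison, being at 0.28 ± 0.283 and 0.138 ± 0.0116 CPM.

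**Figure D3:**
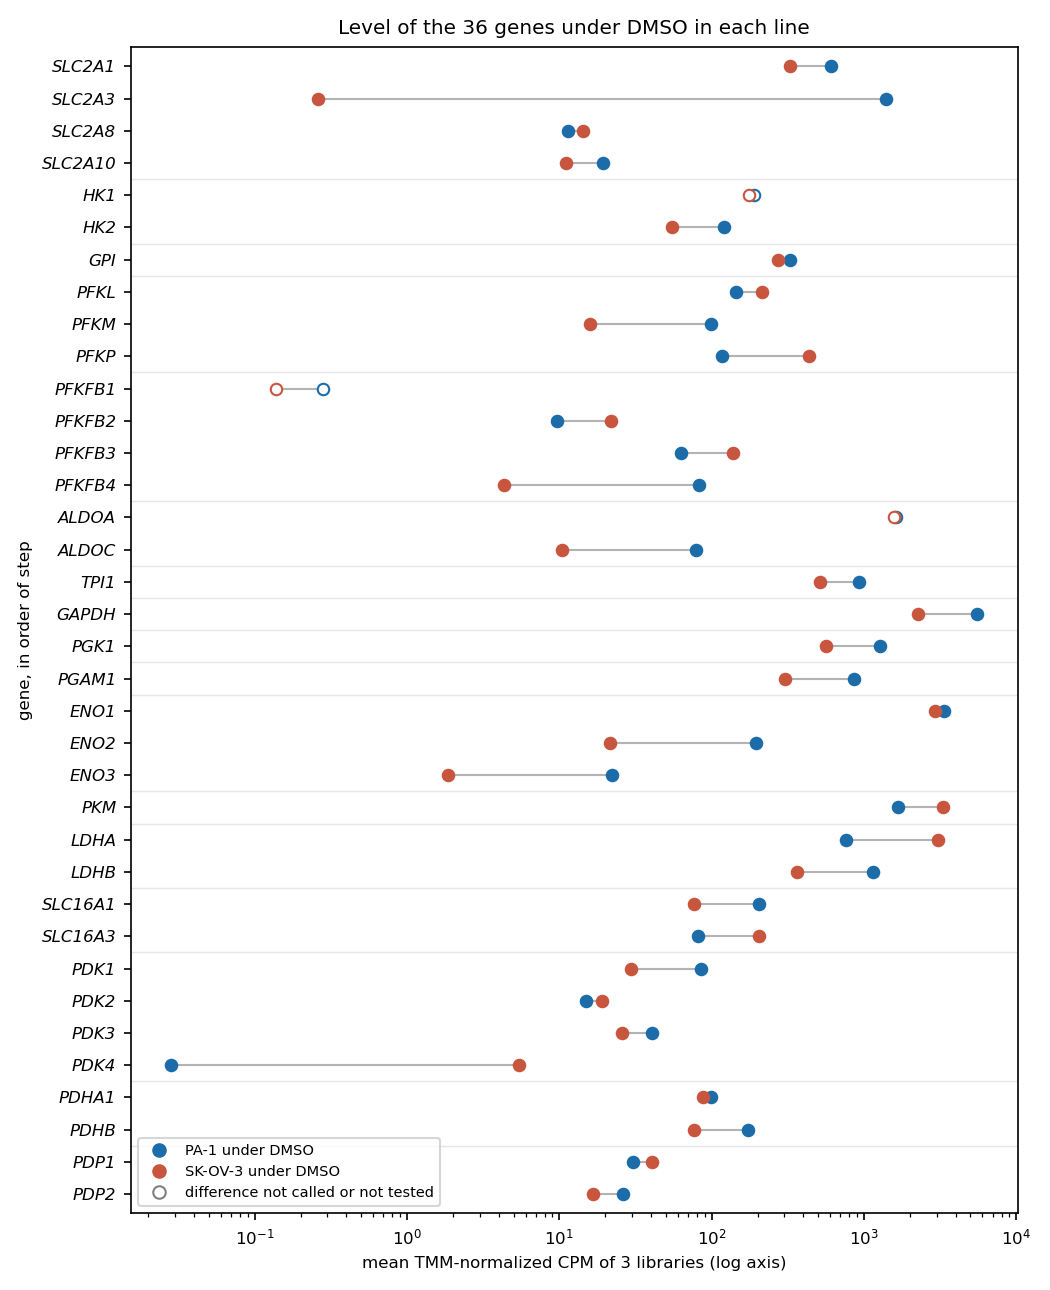
Mean TMM-normalized CPM of 3 DMSO libraries (x axis, log scale) in PA-1 (blue) and SK-OV-3 (red) for each member in order of step (y axis), joined by a line, with open points where the difference was not called or not tested. SLC2A3 spans 1393 to 0.26 CPM, LDHA and LDHB lie in opposite orders in the 2 lines, and HK1 and ALDOA are nearly level.

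Ratios of isozymes within a library hardly depend on how libraries are scaled, and they were compared for 15 pairs. Between the lines, with both treatments in the exact permutation test as strata, 13 of the 14 pairs measured in both differed at the smallest p it allows (0.005, adjusted p = 0.00538). As 80.3% of all genes differed between the lines under DMSO, many pairs of unrelated genes could also reach this p. Such pairs were not compared, so the count shows nothing particular to isozymes. For PFKFB3/PFKFB2 the p was 0.035, but the ratio was 2.67 ± 0.16 and 2.64 ± 0.16 under DMSO, a difference of -0.03, against -1.70 under BAY-850. LDHA/LDHB was at -0.60 ± 0.06 (log2, SD) in PA-1 and 3.06 ± 0.04 in SK-OV-3, SLC16A3/SLC16A1 at -1.33 ± 0.07 and 1.42 ± 0.13, and PFKP/PFKL at -0.32 ± 0.05 and 1.03 ± 0.04. PFKFB4/PFKFB3 was at 0.38 ± 0.02 and -4.84 ± 0.14, and ENO2/ENO1 at -4.09 ± 0.05 and -7.07 ± 0.07.

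With 3 libraries a group, the exact test of BAY-850 against DMSO within a line cannot go below p = 0.1 (two-sided, adjusted p = 0.138), so these ratios are given by size and overlap. ENO2/ENO1 differed, BAY-850 minus DMSO, by 0.41 ± 0.03 (SE) in PA-1 and 0.79 ± 0.11 in SK-OV-3, ALDOC/ALDOA by 0.13 ± 0.04 and 1.16 ± 0.14, and SLC16A3/SLC16A1 by 0.60 ± 0.04 and 0.53 ± 0.13, all without overlap. LDHA/LDHB differed by 0.51 ± 0.05 and 0.26 ± 0.05, and HK2/HK1 by 1.09 ± 0.05 and 0.18 ± 0.02, again without overlap. PFKP/PFKL overlapped in both lines (0.11 ± 0.05 and 0.0040 ± 0.02), as did PDK3/PDK2. PDP2/PDP1 differed by -0.27 ± 0.06 in SK-OV-3 without overlap and by 0.12 ± 0.12 in PA-1 with overlap.

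**Figure D4:**
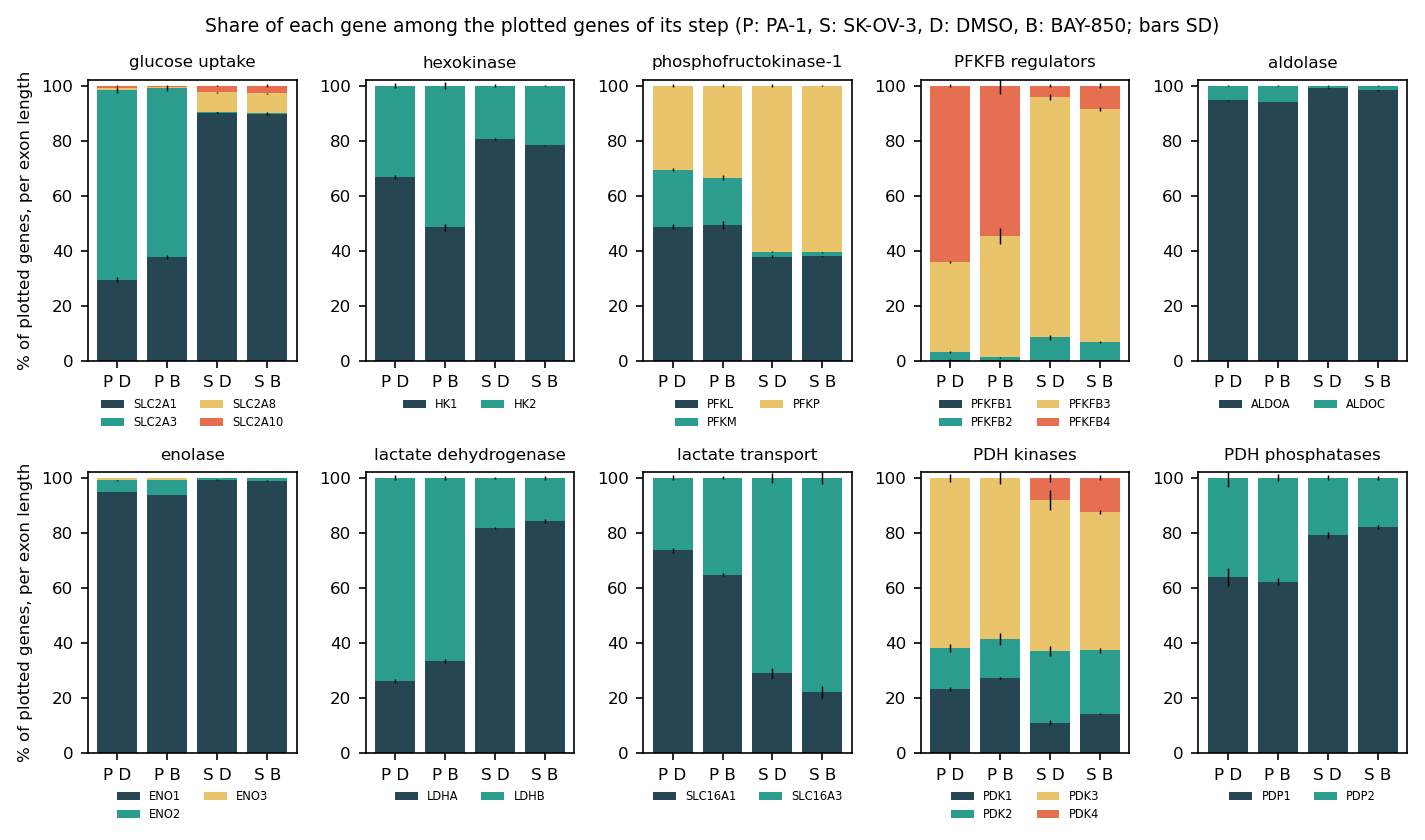
Share of each member among the members of its step (y axis, percent of counts per exon length, stacked to 100, other isozymes such as HKDC1 left out) in the 4 groups (x axis), with bars of 1 SD over 3 libraries. LDHA makes up 26.1% of LDHA and LDHB in PA-1 and 81.7% in SK-OV-3 under DMSO. Within PA-1 HK2 makes up 51.5% of its pair with HK1 under BAY-850 and 33.3% under DMSO. Per length of the longest transcript these HK2 shares are 48.4% and 30.6%.

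The promoters of the most upregulated shared genes are shown for the 4 members with the largest mean log2 fold change over both lines among those called in both, PFKFB4, ALDOC, PFKFB3 and HK2. HIF factors bind the core letters ACGTG or GCGTG, and MYC and the carbohydrate-response factors bind E-boxes such as CACGTG, which contains ACGTG. The 250 bases before each RefSeq start (assembly GRCh38.p14) were searched on both strands, and 32 of the 36 members had such a window. ACGTG was in 22 of 62 member windows, 35.5%, and in 18.5% of all 35116 windows. GCGTG was in 30.6% of member windows and 32.2% of all windows, and CACGTG in 14.5% and 6.34%. A match is a run of letters and no measurement of binding. Stretches that GENCODE 29 places in an exon of the same gene are left out, which removes the whole ALDOC window. It held ACGTG at 3 places, GCGTG at 2 and CACGTG at 1, where each CACGTG also counts as 2 places of ACGTG, 1 on each strand. The stretches are PFKFB4 at chr3:48556924-48556982 (minus strand), PFKFB3 at chr10:6144671-6144920 and at a second start at chr10:6202682-6202865 (plus strand), and HK2 at chr2:74833877-74833980 and, within an intron of a longer transcript, at chr2:74834920-74835169 (plus strand). Capitals mark ACGTG or GCGTG, or either one read on the opposite strand, and runs written CACGTG are E-boxes.
PFKFB4: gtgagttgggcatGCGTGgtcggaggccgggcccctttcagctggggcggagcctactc
PFKFB3, upstream start: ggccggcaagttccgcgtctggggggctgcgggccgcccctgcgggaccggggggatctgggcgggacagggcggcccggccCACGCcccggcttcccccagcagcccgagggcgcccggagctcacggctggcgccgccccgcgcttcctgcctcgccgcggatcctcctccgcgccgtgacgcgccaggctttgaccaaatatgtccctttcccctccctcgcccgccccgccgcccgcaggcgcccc
PFKFB3, downstream start: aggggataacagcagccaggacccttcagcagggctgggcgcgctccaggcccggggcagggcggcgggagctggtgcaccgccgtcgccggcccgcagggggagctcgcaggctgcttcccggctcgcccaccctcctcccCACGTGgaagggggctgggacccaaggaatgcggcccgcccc
HK2, upstream start: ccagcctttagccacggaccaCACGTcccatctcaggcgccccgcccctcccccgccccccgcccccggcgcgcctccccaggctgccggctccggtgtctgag
HK2, intronic start: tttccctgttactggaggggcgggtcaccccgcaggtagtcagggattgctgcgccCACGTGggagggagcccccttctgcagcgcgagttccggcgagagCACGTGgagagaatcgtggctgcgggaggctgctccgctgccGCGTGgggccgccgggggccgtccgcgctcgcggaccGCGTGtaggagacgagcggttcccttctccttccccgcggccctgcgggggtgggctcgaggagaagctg
The second HK2 stretch held 2 E-boxes and 2 GCGTG runs, the downstream PFKFB3 stretch held 1 E-box, and the PFKFB4 stretch held 1 GCGTG run and no ACGTG. SLC2A1, which rose 2.44-fold in PA-1, had none of the 3 motifs in its window. LDHA had ACGTG at 5 places and CACGTG at 2 over 2 windows, counted in the same way.

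Genes of neighbouring pathways were read from further lists, beside all genes tested, of which 4.65% were called higher and 2.48% lower in PA-1 and 10.8% higher and 9.56% lower in SK-OV-3. Of 30 other isozymes and carriers, 17 were tested in PA-1, where edgeR called 0, DESeq2 1 and limma-voom 0, with 1 at an unadjusted p under 0.05. In SK-OV-3 edgeR called 1 of 15 higher, the hexokinase-like HKDC1 (80.1 ± 1.48 to 140 ± 15.3 CPM, log2 0.82 ± 0.07, adjusted p = 1.46e-05), and 1 lower, SLC2A12 (7.96 ± 1.04 to 4.61 ± 0.785 CPM, log2 -0.77 ± 0.19, adjusted p = 0.0136). HKDC1 was at 0.688 ± 0.263 and 1.03 ± 0.0982 CPM in PA-1. Among the 6 genes of pyruvate entry and the rest of the pyruvate dehydrogenase complex, PDPR, a regulator of the phosphatase, was called higher in PA-1 (log2 0.40 ± 0.10, adjusted p = 0.021). In SK-OV-3 PDPR was called lower (-0.24 ± 0.08, adjusted p = 0.0479), as was MPC2, a subunit of the pyruvate carrier (-0.26 ± 0.08, adjusted p = 0.0409). Both lie near the threshold, and there limma-voom called 1 gene of the list lower and DESeq2 2. The PDPR interaction was called (-0.66 ± 0.14, adjusted p = 0.00587).

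Of 8 gluconeogenic and bypass genes, edgeR called 0 of 5 in PA-1, as did DESeq2 and limma-voom, with 1 at an unadjusted p under 0.05. In SK-OV-3 it called 1 of 4, PCK2, the mitochondrial form of the gluconeogenic carboxykinase (11.7 ± 0.706 to 46.4 ± 1.96 CPM, log2 1.99 ± 0.08, adjusted p = 5.59e-08). Of 20 genes of the tricarboxylic acid cycle, 1 was lower in PA-1, where 2.48% of all genes were, SDHB (-0.27 ± 0.08), and 3 were lower in SK-OV-3, where 9.56% of all genes were, ACO1, CS and FH (-0.28 ± 0.08, -0.23 ± 0.05 and -0.21 ± 0.06).

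Of 10 transcription factors known to act on glycolytic genes, 2 were higher in PA-1, where 4.65% of all genes were, MLXIP (log2 0.38 ± 0.08, adjusted p = 0.0109) and SP1 (0.31 ± 0.06, adjusted p = 0.00641). In SK-OV-3, where 10.8% of all genes were higher, 2 others were, EPAS1 (HIF-2α, 58.3 ± 2.44 to 134 ± 0.861 CPM, log2 1.21 ± 0.06, adjusted p = 1.05e-07) and ARNT, its partner (0.30 ± 0.08, adjusted p = 0.0198).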

How the data were processed

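RNA from 12 cultures of PA-1 and SK-OV-3 was sequenced by the authors from strand-specific libraries. The labels name oligo-dT selection and the design text names ribosomal RNA depletion. The deposited table holds expected counts made by the authors, 1 row for each symbol, and the submitters' processing notes list RSEM 1.2.15, Bowtie2 2.1.0 and the hg38 build. The annotation and the strand setting are not given in the sources used here. Expected counts were rounded to whole numbers, filtered with filterByExpr, scaled by TMM and tested in edgeR 4.0.16 (R 4.3.3) with the quasi-likelihood test and Benjamini-Hochberg adjustment over all genes tested, at an adjusted p of 0.05. Each comparison was fitted on its own groups and the interaction on all 12 libraries. The SE of a log2 fold change came from its own size and the F statistic, as their ratio on the root scale. Isozyme ratios were log2 ratios of CPM with a pseudocount of 0.5 CPM, and isozyme shares used CPM per kilobase of GENCODE 29 exons. The members and gene lists were chosen with earlier results of these data known. Genes are given in full when called at 1.5-fold or more or with a called interaction, with the other isozymes of the step beside them, and at most 3 genes are named per comparison and list. Protein sequences were not analysed here, and the pentose phosphate genes are not reported here. The fit was tested on simulated data. Alternatives were DESeq2 1.42.0, limma-voom (limma 3.58.1), other scalings and filters, a replicate block, removal of the GC trend, 1 fit of all libraries, and leaving out each library. With 3 cultures a group, edgeR p-values set the difference between groups against the variation between these cultures, estimated with information shared over genes.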

Additional observations from a re-analysis of the deposited data

Results flagged for a closer look

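The response to BAY-850 differed between the lines for 11 members in the interaction test of edgeR, given as the log2 response of SK-OV-3 minus that of PA-1. The difference was -1.24 for SLC2A1, -0.30 for HK1, -1.21 for HK2, -0.48 for GPI, -0.27 for PFKP, -1.66 for PFKFB3 and -0.48 for LDHA. It was 1.19 for SLC2A3, 0.94 for ALDOC, 0.87 for PDP1 and 0.47 for PDP2. The lines were grown in different media, and line and medium cannot be told apart.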

How the results depend on the processing

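The number of members called stayed within 1.5 times the reported count under every alternative run. In PA-1 it was 19 to 21 under the other tools, scalings and filters, and 17 to 21 on leaving out 1 library. In SK-OV-3 it was 16 to 22, and 15 to 21 on leaving out 1 library. For the lines under DMSO it was 31 to 34, and 32 to 33 on leaving out 1 library, and for the interaction 9 to 14, and 9 to 11 on leaving out 1 library. Deviations of same-numbered DMSO and BAY-850 libraries correlated at -0.06 to 0.04, and those of other-numbered ones at -0.15 to 0.13. For the DMSO libraries of both lines these were 0.02 to 0.19 and -0.13 to 0.09. Deviations from a mean of 3 libraries leave few independent values, so this cannot decide whether the numbers pair the samples. With the replicate block the counts were 21, 16, 34 and 11. Over all genes, the PA-1 count of 1085 was 1674 by DESeq2, 466 with library size only, 629 with the GC trend removed, 683 in 1 fit of all libraries, and 489, 340 and 344 without DMSO replicate 1, DMSO replicate 2 or BAY-850 replicate 2. The SK-OV-3 count of 3130 was 1781 and 1983 without DMSO replicate 2 or 3. The cause was not tested. With library size only, calls were lost for PKM and TPI1 in PA-1 (adjusted p = 0.0578 and 0.0722), for HK1, PFKFB3, PFKL and PFKP in SK-OV-3 (0.115, 0.101, 0.0792 and 0.057), for the interactions of HK1 and PFKP (0.098 and 0.131) and for the line difference of PDHA1 (0.142). PDK4 was not called in SK-OV-3 in 1 fit of all libraries (adjusted p = 0.129), while SLC2A3 was called there (0.000701) and by DESeq2 (0.0292).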
